A study of Mus musculus with 12 samples.

Results

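Trp73, Nhlh2, Ebf2, Ebf3, Lhx1, Lhx5, Calb2, Ndnf and Cacna2d2 are 9 genes used as markers of Cajal-Retzius cells, and they were followed across 12 RNA libraries of mouse cerebral cortex at embryonic day 15.5. They were found by gene symbol among the 51912 Ensembl genes that each library listed, and all 9 were listed. The level of 7 of them was high enough for the test, which took in 10678 genes. Lhx1 and Lhx5 fell below its minimum and were too low to judge. The libraries came from 6 embryos labelled Emx1-Cre Arid1a conditional mutant and 6 embryos labelled as controls, with 1 library per embryo and all in batch 1. Arid1a encodes a subunit of BAF, a chromatin remodelling complex, through which the complex contacts DNA. The Emx1 promoter drives Cre recombinase in dorsal telencephalic progenitors, so cells of other origin in the same tissue keep an intact gene. The labels do not state the strain or the alleles that the controls carried. Litter 1 held 2 mutants and 4 controls, and litter 2 held 4 mutants and 2 controls. There were 5 female mutants and 1 male mutant, against 2 female and 4 male controls, which leaves genotype partly mixed with litter and sex.

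Cajal-Retzius cells are among the earliest neurons of the cortex. They arise at the borders of the cortical sheet, above all the cortical hem, the septum and the boundary between pallium and subpallium, and spread beneath the meninges into the marginal zone. There they secrete reelin, the glycoprotein that guides the layering of later-born neurons. They form a thin population at the surface, so their transcripts are diluted in RNA of a whole dissected cortex. In such bulk RNA, fewer cells of a type and less RNA per cell cannot be told apart.

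Depth ran from 643197 counts on genes in mutant 1 to 3525121 in mutant 3. Mutants 1, 4, 2 and 6 had the fewest counts, and among controls the depth was 1476478 to 2815042. Arid1a itself stood at 396 to 525 CPM over the mutants and 464 to 575 CPM over the controls, where CPM is the count set to a common scaled library size. Mutant minus control, its log2 value was -0.30 (SE 0.0958, 95% interval -0.50 to -0.098, unadjusted p = 0.00593, adjusted p = 0.277 in edgeR). The lower level thus did not pass after adjustment, and the labelled mutation was not seen as a called fall of the whole-gene count. The value was negative within both litters, at -0.18 in litter 1 and -0.31 in litter 2. Mutants 1, 2 and 4 lay below every control, and the other mutants lay within the control range. Emx1, whose promoter drives the Cre, had -0.13 (SE 0.348, adjusted p = 0.979). Of the 10 genes taken to define cortical tissue, 9 were tested and Tubb3 was listed at 0 in every library. The summed level of these cortical genes was 2208 to 3049 CPM over the mutants and 2400 to 4037 CPM over the controls.

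None of the 7 testable Cajal-Retzius genes differed between mutant and control cortex at an adjusted p under 0.05 in edgeR's quasi-likelihood fit, where 0.215% of all genes tested were called. DESeq2 and limma-voom also called 0 of the 7, where they called 95 and 24 of all genes. At an unadjusted p under 0.05 there was 1 of the 7, Ebf2, in a background of 8.78%. Fitted log2 fold changes were positive for 3 genes (Ebf2, Ebf3 and Calb2) and negative for 4 (Trp73, Nhlh2, Ndnf and Cacna2d2). Their median was -0.06, against -0.00088 over all genes tested, of which 5325 were positive and 5353 negative. No gene of the 9 had all 6 mutants outside the range of the controls, as 1.26% of genes tested did. The widest of the 95% intervals was that of Trp73, from -1.79 to 1.24, or 0.29 to 2.36 times the control level. Falls and rises within that range could not be told from no change for that gene.

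**Figure D1:**
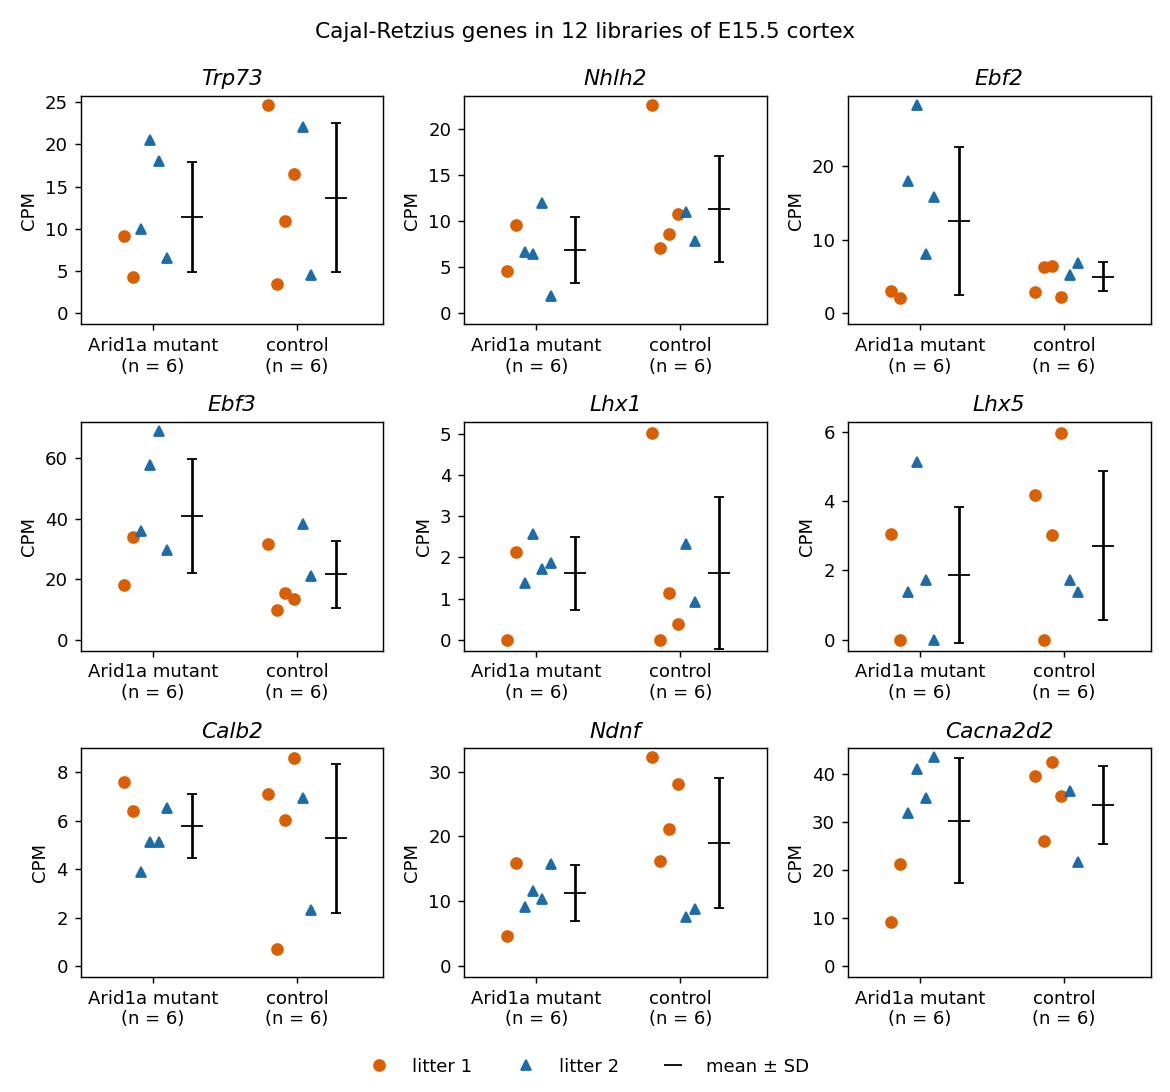
Level of each of the 9 genes in CPM (y axis, linear, own scale per gene) in 6 Arid1a mutant and 6 control libraries, with circles for litter 1, triangles for litter 2 and black bars for mean ± SD. The 4 litter 2 mutants stand above every control in Ebf2, the 4 litter 1 controls stand above every mutant in Ndnf, and Lhx1 and Lhx5 stay at or under 5.97 CPM.

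Trp73 encodes p73, a p53-family transcription factor that Cajal-Retzius cells of the hem and septum are known to need for survival. It lies on mm10 chromosome 4 (154056253 to 154140208, minus strand; ENSMUSG00000029026.16). Trp73 had 9.12, 4.26, 9.97, 20.5, 17.98 and 6.51 CPM in mutants 1 to 6, and 24.7, 3.53, 10.9, 16.4, 21.98 and 4.60 CPM in controls 1 to 6. High and low libraries stood in both genotypes and both litters, and the control range enclosed the mutant range. Mean levels were 11.4 ± 6.47 CPM over the mutants and 13.7 ± 8.83 CPM over the controls (SD, n = 6 per genotype), and the fit gave -0.27 on the log2 scale (SE 0.678, adjusted p = 0.977). The litter 2 libraries alone gave 0.66, and within litter 1 it was -1.95. Litter 1 had no male mutant and 1 female control, so each value within litter 1 sets mutants 1 and 2 against control 1 alone. Control 1 held the highest Trp73 level of the 12 libraries, and without it the fitted value was 0.64 (adjusted p = 0.818). It was 0.01 (adjusted p = 1.000) without control 5.

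Trp73 is read from more than 1 start: a distal promoter gives the full-length protein, and an internal promoter gives the N-terminally truncated form that is the main one in developing brain. Counts were per gene, so the starts could not be separated here. The stretch just upstream of the internal start is shown because it precedes the start of the form known from these cells. It covers 250 bases of RefSeq's GRCm38.p6, chr4:154097174-154097423, minus strand, 58.4% of them G or C.
Trp73 internal promoter, 5′ to 3′: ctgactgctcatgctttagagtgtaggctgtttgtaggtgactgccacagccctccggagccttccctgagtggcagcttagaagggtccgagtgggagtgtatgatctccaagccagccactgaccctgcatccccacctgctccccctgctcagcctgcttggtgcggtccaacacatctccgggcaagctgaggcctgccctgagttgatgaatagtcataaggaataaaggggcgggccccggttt
In lower case throughout, it held no match on either strand to 3 motifs searched: TCCCNNGGG, of the kind that EBF factors bind, the E-box CAGCTG and the LIM homeodomain core TAATTA. These letters occur in 5.6%, 13.0% and 4.84% of 32851 mouse promoter windows of 250 bases upstream, in the order named.

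Nhlh2 encodes a basic helix-loop-helix factor of newborn neurons, and its gene lies on chromosome 3 (102010076 to 102015492, plus strand; ENSMUSG00000048540.8). Nhlh2 had 4.56, 9.58, 6.65, 6.42, 11.99 and 1.86 CPM in mutants 1 to 6, and 22.6, 7.07, 8.66, 10.8, 10.99 and 7.82 CPM in controls 1 to 6. Mutants 1, 3, 4 and 6 lay below every control, while mutants 2 and 5 lay within the control range. Means were 6.84 ± 3.58 CPM over the mutants and 11.3 ± 5.73 CPM over the controls (SD, n = 6 per genotype). The log2 fold change was -0.80 (SE 0.419, 95% interval -1.69 to 0.08, adjusted p = 0.624), so the lower level in mutants did not pass the test. Nhlh2 was negative within both litters, at -1.59 in litter 1 and -0.25 in litter 2. Control 1 alone stood far above the other 5 controls, and without it the fitted value was -0.23. Mutant 6's level rests on 2 counts and mutant 1's on 3.

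Ebf2 encodes an early B-cell factor, a helix-loop-helix transcription factor known as a marker of hem-derived Cajal-Retzius cells, and was the gene with the largest positive difference. It lies on chromosome 14 (67233292 to 67430918, plus strand; ENSMUSG00000022053.13). Ebf2 had 3.04, 2.13, 18.00, 28.3, 8.14 and 15.8 CPM in mutants 1 to 6, and 2.93, 6.36, 6.40, 2.24, 5.21 and 6.90 CPM in controls 1 to 6. All 4 mutants of litter 2 (mutants 3 to 6) lay above all 6 controls, and both mutants of litter 1 lay among the lowest libraries. Means were 12.6 ± 10.1 CPM over the mutants and 5.01 ± 1.97 CPM over the controls (SD, n = 6 per genotype). The fitted level was 2.22 times as high in mutants (95% interval 1.17 to 4.21), or 1.15 on the log2 scale (SE 0.438, unadjusted p = 0.0177, adjusted p = 0.395). Ebf2 thus did not pass after adjustment over all genes. Its value was 0.70 without control 5 (adjusted p = 0.734), 0.88 without mutant 4, 0.73 in females alone and 0.83 with no sex term, and the unadjusted p was not under 0.05 in any of these fits. The value was 1.56 within litter 2 and -0.22 within litter 1. The 2 mutants of litter 1 were the shallowest and the third shallowest libraries, and their levels rest on 2 counts each. Counts were low in controls too: Ebf2 reached 10 counts in 6 of 12 libraries, 4 mutants and 2 controls. Controls 1, 2, 4 and 5 held 7, 9, 6 and 9 counts. Exact Clopper-Pearson 95% intervals, which cover counting error only, ran up to 10.98 CPM in mutant 1 and 7.69 CPM in mutant 2. In mutant 3, with 65 counts, the interval was 13.9 to 22.9 CPM, above the upper bound of every control's interval, the highest of which was 12.1 CPM in control 2. In mutant 5, with 19 counts, it was 4.90 to 12.7 CPM and overlapped those of controls.

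Ebf3, a paralog of Ebf2 and a further early B-cell factor of Cajal-Retzius cells, lies on chromosome 7 (137193673 to 137314445, minus strand; ENSMUSG00000010476.14) and was the best-measured factor, with 691 counts in all. Ebf3 had 18.2, 34.1, 36.00, 57.8, 68.9 and 29.7 CPM in mutants 1 to 6, and 31.8, 9.89, 15.4, 13.4, 38.2 and 21.2 CPM in controls 1 to 6. Mutants 4 and 5 lay above every control, and the other 4 mutants lay within the control range. Means were 40.8 ± 18.9 CPM over the mutants and 21.6 ± 11.1 CPM over the controls (SD, n = 6 per genotype), and the log2 fold change was 0.60 (SE 0.409, 95% interval -0.31 to 1.51, adjusted p = 0.769). It was 0.92 within litter 2 and -0.23 within litter 1. Both Ebf2 and Ebf3 have antisense neighbours in the annotation, which share 6.12% of the exon bases of Ebf2 and 3.85% of those of Ebf3. The strand setting of the counting is not given in the sources used here, so reads from those neighbours cannot be told apart. The same holds for 5.06% of the exon bases of Trp73, 2.57% of those of Lhx5 and 1.03% of those of Cacna2d2.

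The stretch upstream of Ebf3 is shown because Ebf2 and Ebf3 had the 2 largest positive fold changes of the 7 testable genes and both encode factors that bind EBF-type motifs. It covers 250 bases of RefSeq's GRCm38.p6, chr7:137314446-137314695, minus strand, with 80.0% G or C.
Ebf3 promoter, 5′ to 3′: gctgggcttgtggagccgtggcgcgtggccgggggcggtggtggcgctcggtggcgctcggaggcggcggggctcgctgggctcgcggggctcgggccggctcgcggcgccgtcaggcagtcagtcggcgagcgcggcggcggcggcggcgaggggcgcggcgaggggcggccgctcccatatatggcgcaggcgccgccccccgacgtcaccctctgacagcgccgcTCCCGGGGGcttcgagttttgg
The capitals mark its 1 match to TCCCNNGGG, a motif that 5.6% of the 32851 promoter windows hold. It had no match to CAGCTG or TAATTA on either strand. A match in letters is a description and no measured binding site. RefSeq's table held entries for 5 of the 9 genes, Ebf2 not among them.

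RNA from neighbouring tissue was measured beside these differences, since Ebf factors are also expressed in the striatum and Ebf1 is one of its markers. All 7 tested striatum markers, of 11 listed, had positive log2 fold changes (median 1.11), with 0 called. Their summed level was 2050 to 4285 CPM over the mutants and 1710 to 4068 CPM over the controls. The most abundant were Meis2 (0.17) and Foxp1 (0.04). Over mutants 1 to 6 the striatum sums were 3513, 2408, 2899, 2050, 2658 and 4285 CPM. Over controls 1 to 6 they were 1710, 4068, 2784, 1921, 2409 and 2576 CPM. All 15 tested interneuron markers, of 17 listed, were also positive (median 0.48), with 0 called and summed levels of 1979 to 3722 CPM over the mutants and 1644 to 4486 CPM over the controls. Erbb4 (0.42) and Adarb2 (0.80) were the most abundant of these, and Npy (0.90) had the 1 unadjusted p under 0.05 in these lists. The part of these cell types in the Ebf2 and Ebf3 values was not tested.

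Lhx1 and Lhx5 encode LIM homeodomain factors, and Lhx5 is known to act in the cortical hem. Lhx1 lies on chromosome 11 (84518284 to 84525535, minus strand; ENSMUSG00000018698.15) and Lhx5 on chromosome 5 (120431699 to 120441223, plus strand; ENSMUSG00000029595.9). Lhx1 had 15 counts over the 6 mutants and 22 over the 6 controls, and reached 10 counts in 1 library, control 1, with 12. It was at 0 in mutant 1 and control 2, where a count of 0, with its limit set at 3 counts and not at an exact interval, allows up to 4.56 CPM in mutant 1 and 2.12 CPM in control 2. Elsewhere Lhx1 stood at 1.38 to 2.57 CPM over the mutants and 0.37 to 5.02 CPM over the controls. Lhx5 had 15 counts in mutants and 40 in controls, with 10 or more counts in controls 1 and 4 only. It was at 0 in mutants 2 and 6 and control 2, and stood elsewhere at 1.38 to 5.14 CPM over the mutants and 1.38 to 5.97 CPM over the controls.

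The ranges overlapped for both LIM genes. Means of Lhx1 were 1.61 CPM over the mutants and 1.63 CPM over the controls (two-sided exact permutation within litter, p = 0.991). Means of Lhx5 were 1.88 CPM over the mutants and 2.71 CPM over the controls (p = 0.498 in the same exact permutation test, adjusted p = 0.991 over these 2 genes). The smallest p this test can give is 0.00444. Because 11 of the 12 libraries held fewer than 10 Lhx1 counts and 10 held fewer than 10 Lhx5 counts, neither a difference nor its absence could be read from them.

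Calb2 encodes calretinin, a calcium-binding protein of Cajal-Retzius cells that some interneurons also make. It lies on chromosome 8 (110137502 to 110168210, minus strand; ENSMUSG00000003657.9). Calb2 ranged from 3.88 to 7.60 CPM in mutants, with a median of 5.76 CPM, and from 0.71 to 8.59 CPM in controls, with a median of 6.48 CPM. The control range enclosed all 6 mutants. The log2 fold change was 0.27 (SE 0.496, adjusted p = 0.960), and it was -0.26 without control 6. Calb2 passed the minimum for testing but is close to the limit: it had 122 counts in all, and 6 of 12 libraries held 10 or more. Control 2 held 1 count of Calb2, the lowest of the 12.

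Ndnf encodes a secreted neuron-derived factor of Cajal-Retzius and other superficial cells, and lies on chromosome 6 (65671590 to 65712326, plus strand; ENSMUSG00000049001.5). Ndnf had 4.56, 15.96, 9.14, 11.6, 10.3 and 15.8 CPM in mutants 1 to 6, and 32.2, 16.3, 21.1, 28.00, 7.52 and 8.74 CPM in controls 1 to 6. The 4 controls of litter 1 lay above all 6 mutants, while the 2 controls of litter 2 lay below 5 of the 6 mutants. On average Ndnf stood at 11.2 ± 4.32 CPM over the mutants and 18.97 ± 10.04 CPM over the controls (SD, n = 6 per genotype), and the fitted log2 difference was -0.41 (SE 0.379, adjusted p = 0.851). In litter 1 it was -1.53 and within litter 2 it was 0.42. Without control 1, the highest library, the overall value was 0.04.

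Cacna2d2 encodes an alpha2delta subunit that carries voltage-gated calcium channels to the membrane, and lies on chromosome 9 (107399612 to 107529343, plus strand; ENSMUSG00000010066.15). Cacna2d2 had 9.12, 21.3, 31.8, 41.1, 35.1 and 43.7 CPM in mutants 1 to 6, and 39.7, 26.1, 42.6, 35.5, 36.4 and 21.6 CPM in controls 1 to 6. Mutants 1 and 2, of litter 1, lay below every control, and the mutants of litter 2 lay within the control range or, for mutant 6, above it. Means were 30.4 ± 13.0 CPM over the mutants and 33.7 ± 8.10 CPM over the controls (SD, n = 6 per genotype), and the log2 fold change was -0.06 (SE 0.318, adjusted p = 1.000). It was -1.31 within litter 1 and 0.53 within litter 2. The sign of so small a value turned without mutant 1 (0.15), mutant 2 (0.04) or control 1 (0.26). Mutant 1's level rests on 6 counts, with an exact interval of 3.35 to 19.8 CPM.

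**Figure D2:**
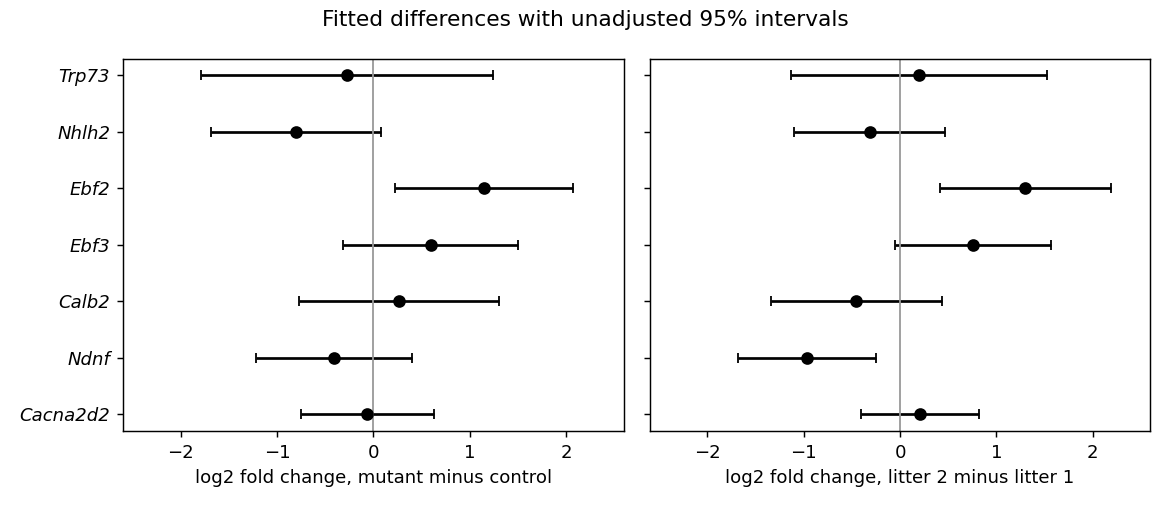
Fitted log2 fold changes with unadjusted 95% intervals for the 7 testable genes, mutant minus control on the left and litter 2 minus litter 1 on the right (x axes, log2 units). The interval lies to 1 side of 0 for Ebf2 in both panels and for Ndnf in the litter panel, and no gene passed after adjustment.

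The labels' litters were compared in the same fit, with genotype and sex held. Again 0 of the 7 genes passed at an adjusted p under 0.05, where 1.31% of all genes tested did. DESeq2 and limma-voom called 0 of the 7 as well, where they called 264 and 126 of all genes. Ebf2 and Ndnf, 2 of the 7, had an unadjusted p under 0.05, against 15.4% of all genes. Ebf2 was higher in litter 2, by 1.30 on the log2 scale (SE 0.420, unadjusted p = 0.00654, adjusted p = 0.138). Its mean was 17.5 ± 8.30 CPM in litter 2 mutants (n = 4), against 2.58 CPM in litter 1 mutants (n = 2). Among controls Ebf2 averaged 6.05 CPM in litter 2 (n = 2) and 4.48 ± 2.21 CPM in litter 1 (n = 4).

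Ndnf differed between litters in the opposite direction, by -0.97 (SE 0.336, unadjusted p = 0.0113, adjusted p = 0.173). It averaged 8.13 CPM in litter 2 controls (n = 2) and 24.4 ± 7.09 CPM in litter 1 controls (n = 4), with no overlap. In mutants its means lay close together, at 11.7 ± 2.91 CPM in litter 2 (n = 4) and 10.3 CPM in litter 1 (n = 2). Ebf3 had a litter difference of 0.75 (SE 0.365, adjusted p = 0.359). For Trp73, Nhlh2, Calb2 and Cacna2d2 it lay between -0.45 and 0.21, with adjusted p of 0.667 to 0.924.

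Whether the genotype difference itself changed with litter was tested by an interaction term. In edgeR 0 of the 7 genes passed, as did 0% of all genes tested. DESeq2 and limma-voom called 0 of the 7, where they called 6 and 0 of all genes. Cacna2d2 and Ndnf had an unadjusted p under 0.05, against 7.27% of all genes. The genotype difference in litter 2 exceeded that in litter 1 by 1.48 for Cacna2d2 (SE 0.435, unadjusted p = 0.0034, adjusted p = 0.504). For Ndnf the excess was 1.73 (SE 0.570, unadjusted p = 0.00749, adjusted p = 0.529). That of Ebf2 was 1.85 (SE 0.934, unadjusted p = 0.0645, adjusted p = 0.711). For Ebf3, Trp73, Nhlh2 and Calb2 the excess was 0.18, 1.23, 0.60 and -0.12, with adjusted p of 0.893 to 0.993. The interaction comes from 1 fit to all libraries, so it need not equal the gap between the separate within-litter values, as for Ebf3.

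Levels differ between the genes only as far as their exon lengths allow comparison, so CPM were divided by kilobases of annotated exon. In this order the genes stood at 4.03 ± 1.32 (Cacna2d2), 3.38 ± 1.93 (Ebf3), 3.17 ± 1.30 (Calb2), 2.27 ± 1.35 (Trp73) and 1.68 ± 0.946 CPM per kb (Nhlh2; SD over 12 libraries). Below them were Ndnf at 1.49 ± 0.831, Ebf2 at 1.27 ± 1.15, Lhx5 at 0.854 ± 0.747 and Lhx1 at 0.397 ± 0.338 CPM per kb. The mean ± SD ranges of neighbours in the order overlapped, and the higher of a pair was above the lower in 6 to 9 of 12 libraries. Reelin's gene, Reln, stood at 19.4 CPM per kb on the same scale. Of the 9 genes Cacna2d2 varied least over the 12 libraries, with a coefficient of variation of 32.8%, and Ebf2 most, at 90.6%.

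**Figure D3:**
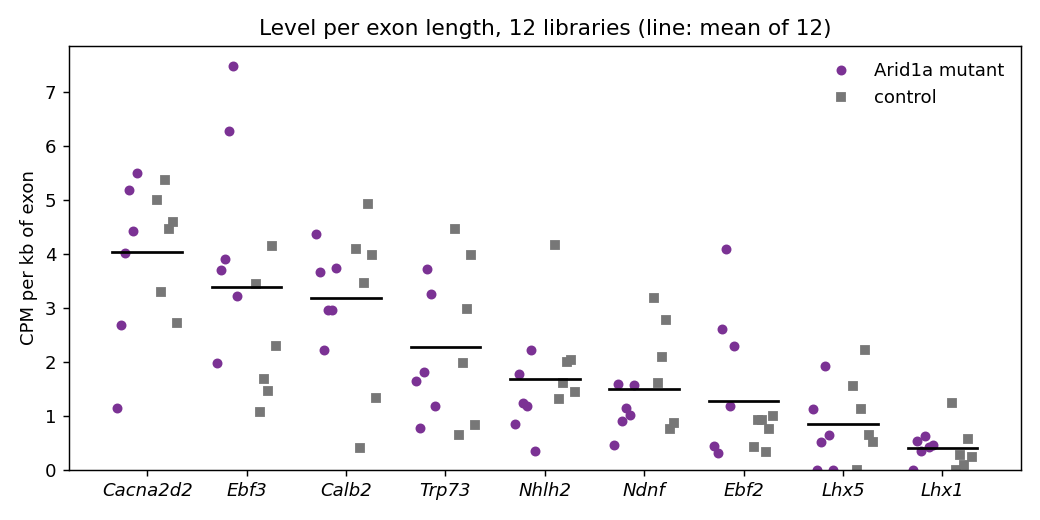
CPM per kilobase of annotated exon (y axis, linear) for the 9 genes in order of their mean, with 6 Arid1a mutant libraries as circles and 6 control libraries as squares. Means over 12 libraries (lines) run from 4.03 for Cacna2d2 to 0.397 for Lhx1, and the points of neighbouring genes overlap throughout.

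Summed over the 9 genes, the level was 122 ± 43.2 CPM over the mutants and 114 ± 37.2 CPM over the controls (SD, n = 6 per genotype). Mutants 1 to 6 summed to 59.3, 95.8, 118, 179, 161 and 122 CPM, and controls 1 to 6 to 170.1, 69.9, 115, 121, 131 and 75.4 CPM. Both genotypes held libraries with low and with high totals, and the mutant range enclosed every control. Control 2 was the lowest library in 5 of the 9 genes and mutant 1 in 3, ties included. The genes did not move as 1 block: among 21 pairs of the 7 testable genes, 17 had a positive Pearson r of log2 CPM over the 12 libraries, with a median r of 0.194. Pairs ranged from -0.498 (Ebf2 with Nhlh2) to 0.597 (Trp73 with Calb2). These correlations describe libraries that share litter, sex and depth differences, and carry no test.

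**Figure D4:**
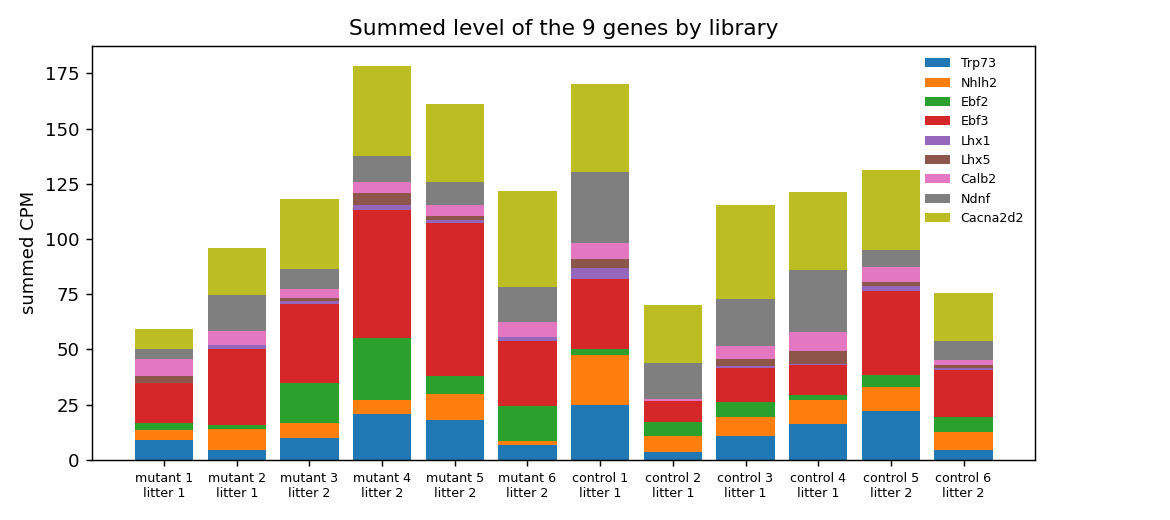
Stacked levels of the 9 genes in CPM (y axis, from 0) in each of 12 libraries, mutants at left and controls at right with their litters. Totals run from 59.3 CPM in mutant 1 to 179 CPM in mutant 4 among mutants and from 69.9 CPM in control 2 to 170.1 CPM in control 1 among controls.

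Reln, the gene whose product marks Cajal-Retzius cells but that interneurons also make, stood at 389 ± 111 CPM over the mutants and 532 ± 153 CPM over the controls (SD, n = 6 per genotype), and the fitted log2 difference was -0.52 (SE 0.294, adjusted p = 0.701). Within litter 1 Reln was at -1.48 and within litter 2 at 0.02. Its litter 1 means were 280 CPM in mutants (n = 2) and 551 CPM in controls (n = 4). In litter 2 they were 444 CPM in mutants (n = 4) and 494 CPM in controls (n = 2). Trp73 tracked Reln over the 12 libraries more closely than it tracked any of the other testable members (r = 0.812, rho = 0.881, n = 12). Nhlh2 followed at r = 0.684 and Cacna2d2 at r = 0.634, while Ebf2 had r = 0.0499. Of the 9 further genes known from Cajal-Retzius cells, Reln included, 7 were tested, 0 were called in edgeR, 2 were positive and 5 negative, with a median log2 fold change of -0.30. Those with an unadjusted p under 0.05 were Zic1, a zinc-finger factor of septal and hem lineages (-1.35, SE 0.568, adjusted p = 0.519), and Ackr3, a scavenging chemokine receptor (0.62, SE 0.244, adjusted p = 0.410). Zic1 averaged 8.32 ± 5.03 CPM over the mutants and 19.1 ± 12.1 CPM over the controls, and Ackr3 24.2 ± 2.75 CPM over the mutants and 19.3 ± 7.61 CPM over the controls (SD, n = 6 per genotype).

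Cxcr4, the receptor for meningeal Cxcl12 that holds Cajal-Retzius cells at the pial surface, had -0.21 by genotype (SE 0.264, adjusted p = 0.910). Its litter difference, litter 2 minus litter 1, was -0.97 (adjusted p = 0.0433), the 1 litter call among these 7 genes. The call held in 1 of 12 fits that left out a library, and without control 6 the value was -0.60 (adjusted p = 0.230, the highest of a range from 0.0317). The remaining values by genotype were -0.30 for Zic2, -0.38 for Nhlh1 and 1.11 for Ebf1, the last with an SE of 1.47 and levels of 66.8 to 947 CPM over the mutants and 41.1 to 762 CPM over the controls. Lhx1os (48 counts) and Barhl2 (50 counts) were below the minimum for testing.

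Fate regulators formed a further list, in which Tbr1 is also among the genes taken to define cortical tissue. Of 8 fate regulators, 7 were tested, with 1 positive, 6 negative and 0 called (median -0.63). Emx2, a homeobox factor of the cortical primordium, had the 1 unadjusted p under 0.05, with -1.19 (SE 0.398, adjusted p = 0.336) and means of 10.9 ± 3.12 CPM over the mutants and 19.6 ± 9.76 CPM over the controls (SD, n = 6 per genotype). The most abundant of these genes were Gli3 (0.02) and Tbr1 (-0.17). Tbr1 differed by litter, being 0.74 higher on the log2 scale in litter 2 (adjusted p = 0.00125), and was called in all 12 fits that left out a library, at 0.58 to 0.78.

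Source tissue was thinly covered. Of 11 cortical hem genes 3 were tested (2 positive, 1 negative, 0 called), 4 had fewer than 10 counts in all libraries together, and their sum was 20.5 to 53.2 CPM over the mutants and 11.04 to 86.9 CPM over the controls. Gdf7, a hem and roof plate signal, was listed at 0 in every library. The hem genes with the highest levels were Wnt5a (-0.17) and Lmx1a (0.15). Of 12 genes of the meninges, which lie on the marginal zone, 1 was tested, Cxcl12 (-0.13). The meningeal sum was 16.7 to 34.9 CPM over the mutants and 14.6 to 59.0 CPM over the controls, with 4 genes under 10 counts in total. Of 7 thalamic genes 4 were tested, 2 in each direction with 0 called, among them Rora (0.15) and Slc17a6 (-0.32), the 1 with an unadjusted p under 0.05. How much of these tissues each dissection carried was not tested.

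Gene family relatives show which paralogs filled the same libraries. Of 14 relatives 9 were tested, 5 positive and 4 negative, with 0 called and a median of 0.02. Cacna2d1 averaged 1152 CPM over the mutants and 996 CPM over the controls (log2 fold change 0.17), and Cacna2d3 204 CPM over the mutants and 330 CPM over the controls (-0.39). Among p53 relatives Trp53 had -0.37, and Trp63 had 8 counts in all. Ebf4 had 0.02. Of the other LIM homeodomain genes Lhx2 had -0.75, Lhx6 0.29 and Lhx9 0.92, while Lhx8 and Isl1 were below the minimum. Calb1, with 97 counts, and Cacna2d4, with 11, were also too low to test.

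For each testable gene, the genes whose log2 CPM ran most like it over the 12 libraries were taken from all 10678 tested, as a description. Trp73 was closest to Onecut2 (r = 0.852), Rtn4rl2 (0.838) and Zfp27 (0.836). Nhlh2 was closest to Dennd1a (r = 0.905), Kcnj3 (0.904) and Elavl2 (0.901), and Cacna2d2 to Mfap1b (0.943), Cdo1 (0.914) and Clybl (0.912). No other gene of the 9 was among the 3 closest to any of them. With 3 taken from 10678 genes, that absence says little about whether the 9 genes move together. For Ebf2 the closest were Uxs1 (r = 0.912), Ccdc126 (0.908) and Slc43a2 (0.896), and for Ebf3 they were F730043M19Rik (0.932), Ror2 (0.911) and Wwc1 (0.906). Ndnf lay closest to Zim1 (r = 0.933), Zbtb46 (0.913) and Sh3yl1 (0.888), and Calb2 to Rnf41 (0.867), Rps27a (0.862) and Rps28 (0.860). These values rest on 12 libraries that share depth, litter and sex differences, and no test was made of them.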

How the data were processed

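Total RNA of 12 embryonic cortices was made into ClickSeq libraries, in which azido-nucleotides end the reverse transcription and a tagged adaptor is joined by click chemistry, from 600 ng of ribosome-depleted RNA, per the labels' protocols. The submitters' processing notes name the build mm10 and, in no set order, STAR 2.5.2a, HTSeq 0.6.1p1, UMI-tools 0.5.3, cutadapt 1.13, edgeR 3.20.9 and bcl2fastq 2.17. The annotation release, the strand setting and the extent of tag collapse were not stated there or in the labels. Per the files, the authors deposited raw counts per Ensembl gene with no normalization, and the closing entries that name no gene were left out. Symbols, exon lengths and coordinates follow GENCODE M21, on GRCm38 and hence mm10: 47734 of 51912 identifiers matched with their version, 3985 without it, and 193 had no match.

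filterByExpr (genotype as group, minimum count 10) chose the genes to test, TMM gave the scaling, and the model of litter plus sex plus genotype, with 8 residual degrees of freedom, was fitted by robust glmQLFit and glmQLFTest in edgeR 4.0.16 under R 4.3.3. P-values were adjusted over all genes tested by Benjamini-Hochberg, and genes with an adjusted p under 0.05 were called. SE is the size of the log2 fold change divided by the square root of F. The interaction of genotype with litter was tested by adding its term, and within-litter values come from fits to 1 litter with a sex term. Genes below the minimum were compared by a two-sided exact permutation of mean CPM within litter. DESeq2 1.42.0, limma-voom (limma 3.58.1), other filters and scalings, subsets of libraries and thinning were alternatives. Tables and plots were made with Python 3.11.15, pandas 2.3.3 and matplotlib 3.10.9, and the fitting was tested on simulated data. The labels name no replicate numbers, so libraries were numbered within genotype by order only. P-values measure the spread between these embryos.

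All 9 Cajal-Retzius genes are named, with Reln, Arid1a, Emx1, the further Cajal-Retzius genes and the family relatives. Of the other lists the called genes and the 2 most abundant are named, and for each testable gene the 3 most alike by Pearson r of log2 CPM. Emx2, the Zic1 and Ackr3 p-values and the motifs were picked out after their values were seen. The genes and lists were chosen with earlier results of these data known.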

Additional observations from a re-analysis of the deposited data

Results flagged for a closer look

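Among the 9 genes in mutants and in controls, 18 groups of 6 libraries were looked at for a library far from the rest, and 1 stood out. Nhlh2 in control 1, a litter 1 female, was at 22.6 CPM, while the next highest control was at 10.99 CPM. The gap was more than 0.625 of the group's range, Dixon's 95% critical value for 6 samples. Chance alone marks about 1 in 20 groups.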

How the results depend on the processing

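By genotype, 0 of the testable genes was called in all 26 alternatives. These settings differed in how many genes of all they called, against 23 in the reported fit. It was 0 without the 2 shallowest libraries and 6 without mutant 2. In DESeq2 it was 95, with genotype as the single term 141 and with no filter on low counts 261. A setting that called few genes of all says little about the members. By litter, 0 was called except with no filter on low counts, where 2 were, Ebf2 (1.32, adjusted p = 0.00882) and Ndnf (-0.95, adjusted p = 0.00667). For the interaction, 0 was called except with no filter, where 1 was, Cacna2d2. That setting called 593 genes of all by litter and 75 by interaction, against 140 and 0 in the reported fit; the cause was not tested. Thinning to the shallowest library left 2 of the 7 genes, Ebf3 and Cacna2d2, above the minimum.

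Signs of genotype values turned as follows, none of them a call. In limma-voom Trp73 was 0.14 and Cacna2d2 0.091. In litter 2 alone Trp73 was 0.66, Ndnf 0.42 and Cacna2d2 0.53. In litter 1 alone Calb2 was -0.041, Ebf2 -0.22 and Ebf3 -0.23. With genotype as the single term Calb2 was -0.053. Cacna2d2 was 0.038 with no litter term, 0.12 without the 2 shallowest libraries and 0.17 after thinning. Leaving out 1 library at a time gave -1.28 to 0.64 for Trp73, -0.26 to 0.61 for Calb2, -0.83 to 0.040 for Ndnf and -0.59 to 0.26 for Cacna2d2. It gave 0.70 to 1.39 for Ebf2, 0.11 to 1.05 for Ebf3 and -1.48 to -0.23 for Nhlh2, with no turn of sign. By litter, Trp73 was -0.46 in females alone and -0.19 to 0.91 with 1 library left out, Cacna2d2 was -0.028 without the 2 shallowest libraries and -0.021 to 0.55 with 1 left out, and Nhlh2 was -0.57 to 0.16. The Lhx1 difference was 0.15 on the log2(CPM + 1) scale and -0.34 to 0.66 CPM with 1 library left out.

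No paired analysis was possible because the labels give no replicate numbers shared between groups; litter was a term of the fit. Counts of Lhx1 and Lhx5 were low in nearly every library, and the deepest, mutant 3, held 5 of each. Whether depth or the level of these genes set this was not tested. In mutant 1, the shallowest, Trp73, Nhlh2, Ebf2, Calb2, Ndnf and Cacna2d2 rest on 2 to 6 counts each, and in mutant 2 Trp73, Ebf2 and Calb2 do.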
